A study of Mus musculus with 26 samples.

Results

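The transcripts of 9 cytokine genes with which antigen-presenting cells steer T cells were followed across RNA-seq libraries from mouse spleen and lung. The genes were taken by symbol: Il6, Il12a, Il12b, Il23a, Il27, Ebi3, Il10, Il15 and Tnf, which are 9 of the 23420 symbols in the deposited table. All 9 had reads, and all 9 were among the 13311 genes tested, each with a normalized count of at least 10 in at least 2 libraries. A normalized count is a read count divided by a size factor for its library, as the authors deposited it. Il12a, Il23a and Il10 were low in most libraries: Il12a had no read in 13 of 26 libraries and at most 86 reads, Il23a had none in 7 and at most 54, and Il10 had none in 4 and at most 30.

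The mice were labelled mTORΔAPC (KO), in which the kinase gene Mtor is disrupted in antigen-presenting cells, or wild-type littermates (WT). The labels used here do not name the promoter or Cre line that directs the disruption. Each genotype had 2 libraries of spleen CD8a dendritic cells (DCs) and 2 of spleen CD11b DCs. It had 3 each of lung CD11b DCs, of alveolar macrophages and of lung inflammatory DCs, so that 10 groups held 26 libraries. The inflammatory DCs of both genotypes came from mice given house dust mite extract through the nose (25 µL at 1 mg/mL, on day 17 by the labels of the samples, day 18 by the protocol text). The remaining groups were from untreated, steady-state mice. The inflammatory DCs therefore differ from the other cells in treatment as well as in type, and in WT also in Y-linked transcripts (given below). These differences cannot be told apart. Nothing in the labels says whether the libraries of a group came from separate animals, so p-values measure only the spread between these libraries.

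Antigen-presenting cells give T cells antigen, costimulation and soluble cytokines, and the cytokines bias what the T cell becomes. The IL-12 family is built of paired chains: the Il12b product p40 joins the Il12a product p35 to make IL-12, which drives T helper type 1 cells, and joins the Il23a product p19 to make IL-23, which sustains IL-17-producing cells. The Ebi3 product joins the Il27 product p28 to make IL-27. IL-6 acts through gp130 and STAT3 and favours IL-17-producing and follicular helper T cells, TNF is an early inflammatory cytokine, IL-10 restrains antigen-presenting cells, and IL-15 is presented on its own receptor chain to NK cells and memory CD8 T cells.

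The promoters of Il6 and Ebi3 are shown because these genes moved in opposite directions in KO alveolar macrophages. Each line gives the 250 bases before the RefSeq transcript start, 5′ to 3′ on the gene's strand, in build GRCm38.p6. The Il6 window is chr5:30012864-30013113 and the Ebi3 window is chr17:55952373-55952622, both on the plus strand. Capitals mark a match to the kB consensus, the element named for NF-κB.
Il6: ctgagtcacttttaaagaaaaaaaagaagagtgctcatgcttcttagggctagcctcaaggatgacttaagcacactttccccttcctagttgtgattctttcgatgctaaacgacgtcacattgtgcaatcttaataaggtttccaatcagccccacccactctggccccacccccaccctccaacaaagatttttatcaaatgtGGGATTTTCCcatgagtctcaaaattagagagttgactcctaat
Ebi3: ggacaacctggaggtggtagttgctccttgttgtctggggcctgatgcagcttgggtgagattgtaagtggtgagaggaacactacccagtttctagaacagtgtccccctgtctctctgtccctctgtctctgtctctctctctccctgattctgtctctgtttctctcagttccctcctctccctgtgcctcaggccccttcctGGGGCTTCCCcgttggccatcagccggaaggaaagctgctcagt
Both matches begin 44 bases before the transcript start. A kB consensus match on either strand was found in 5% of the 32851 RefSeq promoter windows of the same length. The Il6 window also holds an AP-1 core (TGANTCA), 249 bases before the start and found in 6.75% of windows. It further holds a C/EBP motif (TTGCNNAA, on the other strand), 128 bases before the start and found in 9.56% of windows. An interferon-stimulated response element core (GAAANNGAAA, in 2.98% of windows) was in neither window. RefSeq promoters matched 5 of the 9 genes by symbol, and the windows of Il12a, Il12b and Tnf held none of the 4 motifs. Il23a, Il27, Il10 and Il15 had no entry. A match describes letters in a window and is not a site of binding.

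The libraries had a depth of 7.37 to 14.15 M counted reads each. Mtor, the targeted gene, lay at 332 to 476 in the WT libraries, 40.0 to 104 in KO spleen DCs and alveolar macrophages, 169 to 316 in KO lung CD11b DCs and 196 to 236 in KO inflammatory DCs. Several measures moved with genotype, and their part in the cytokine results was not tested. The summed level of 4 Y-linked genes, a list chosen after the values were seen, was at most 2.28 in every steady-state WT library, 659.5 to 3295 in KO spleen DCs and alveolar macrophages, 1318 in replicate 1 of the KO lung CD11b DCs but at most 1.35 in the other KO lung libraries, and 1420 to 2523 in all 6 inflammatory DC libraries. The sex of the mice and the genotype cannot be told apart in spleen and alveolar macrophages. WT inflammatory DCs also differed in these genes from steady-state WT cells, so sex cannot be told apart from treatment and cell type there. Xist, a transcript of female cells, was 3620 and 3092 in replicate 1 of KO spleen CD8a and CD11b DCs. It was 572 to 2293 in KO alveolar macrophages and 1450 in replicate 1 of KO lung CD11b DCs, beside the Y-linked reads. Whether such libraries mix cells of both sexes was not tested. Labelled cell types were checked against their markers: Flt3 and Zbtb46, which define conventional DCs, averaged 129 and 97.0 in WT inflammatory DCs against 2654 and 1033 in WT lung CD11b DCs, while Itgax, also on that list, averaged 15200 against 5927 and H2-Ab1 69978 against 197564. Of the alveolar macrophage markers, Car4 averaged 6692 and Atp6v0d2 16870 in WT inflammatory DCs against 6251 and 17789 in WT alveolar macrophages, but Siglec5 averaged 511 against 7198, Marco 219 against 2572, Ear1 191 against 6543 and Pparg 1273 against 3016. Ccr7 (295 against 3253) and Dpp4 (195 against 3105) were also lower than in WT lung CD11b DCs. Itgax averaged 9533 in WT alveolar macrophages. Chi3l3 (911564 against 273577) and Fabp4 (845 against 625) exceeded WT alveolar macrophages, while Ear2 (450 against 726) did not. Of the conventional DC list only Itgax was thus higher than in WT lung CD11b DCs. The alveolar macrophage list had members on either side of WT alveolar macrophages.

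KO was compared with WT in each of the 5 cell types for each of the 9 genes, which gave 45 tests. Each test was made with limma on log2(normalized count + 1), fitted across all 13311 genes with p adjusted over them, and a gene was called at an adjusted p under 0.05. Of the 45 tests 11 were called, 7 higher and 4 lower in KO, and 6 of the 9 genes were called in at least 1 cell type. Lung CD11b DCs had 4 calls, Il12a, Il12b and Il15 higher and Ebi3 lower, where 26.1% of all tested genes were called. Alveolar macrophages also had 4, Ebi3, Il15 and Il12b higher and Il6 lower, where 16.9% of genes were called. Spleen CD8a DCs had 2, Il10 and Il15, both lower, against a background of 5.13%. Inflammatory DCs had 1, Ebi3, higher, against 3.37%. Spleen CD11b DCs had 0 of 9, against 1.52%, and none of the 9 had an unadjusted p under 0.05 there; edgeR and DESeq2 on the recovered reads also called 0. The median difference of the 9 genes was 0 in spleen CD8a DCs, 0.26 in spleen CD11b DCs, 0.56 in lung CD11b DCs, 0.46 in inflammatory DCs and 0.49 in alveolar macrophages, beside medians of -0.05 to 0.02 over all tested genes. The KO and WT libraries did not overlap for 3, 2, 3, 2 and 4 of the 9 genes in these cells, in that order, while the same held for 46.7%, 47.9%, 28.6%, 20.9% and 44.6% of all tested genes. The plot of log2 differences by cell type shows that no gene was called in the same direction in more than 2 cell types.

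**Figure D1:**
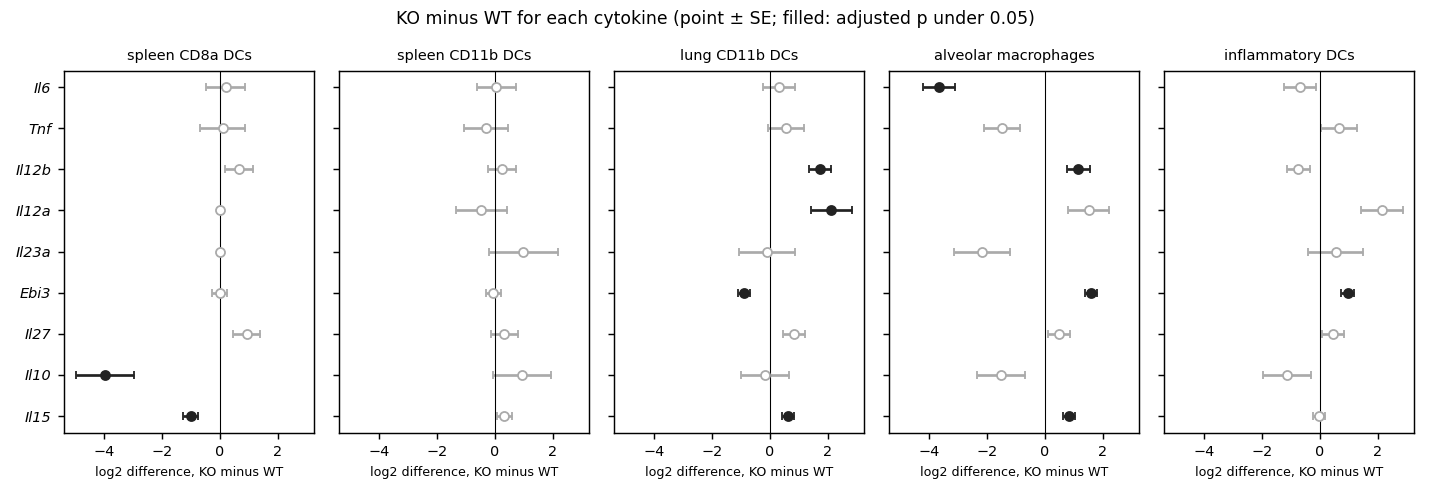
KO minus WT difference on the log2(normalized count + 1) scale (x axis) for each of the 9 genes (y axis) in the 5 cell types; points are differences of group means, bars are moderated standard errors and filled points were called. The only filled points left of 0 are Il10 and Il15 in spleen CD8a DCs, Ebi3 in lung CD11b DCs and Il6 in alveolar macrophages; Il12a and Il23a in spleen CD8a DCs had 0 reads in every library and carry no bar.

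Il6 (chr5:30013114-30019981, plus strand of GRCm38, the build of all positions given), which encodes IL-6, fell in KO alveolar macrophages, where it was the only one of the 9 called lower. The 3 WT libraries held 217, 216 and 172 normalized counts and the 3 KO libraries 41.6, 13.4 and 5.48. Every KO library lay far below every WT library, and the lowest KO library rested on 6 reads. The difference was -3.67 ± 0.55 on the log2 scale (SE, limma adjusted p = 2.96e-05). It kept its call in all 14 alternatives run, between -4.38 and -3.02.

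In the other cells Il6 was not called. Lung CD11b DCs held 147, 125 and 77.4 in WT and 84.3, 208 and 156 in KO, and the groups overlapped (0.31 ± 0.55, adjusted p = 0.723). Inflammatory DCs held 142, 194 and 351 in WT and 180.03, 121 and 108 in KO, again overlapping (-0.68 ± 0.55, adjusted p = 0.697). The KO effect on Il6 in alveolar macrophages was lower than that in lung CD11b DCs by 3.98 log2 units (-3.98 ± 0.78, adjusted p = 0.000915), where 2 of the 9 genes were called against a background of 16.8%. It was also lower than that in inflammatory DCs (2.99 ± 0.78 for inflammatory DCs minus alveolar macrophages, adjusted p = 0.0169), where 2 of 9 were called against 7.93%. This second call was lost without KO alveolar macrophage replicate 3 (2.35, adjusted p = 0.0564) and without WT inflammatory DC replicate 1 (2.70, adjusted p = 0.0502). These differences share the alveolar macrophage libraries.

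In WT cells Il6 was low in the spleen and high in the lung. Spleen CD8a DCs held 5.14 and 14.2 and spleen CD11b DCs 3.59 and 6.77, and their KO libraries lay between 3.89 and 16.8. Lung CD11b DCs exceeded spleen CD11b DCs by 4.25 ± 0.62 (adjusted p = 8.04e-06). The WT order was inflammatory DCs, alveolar macrophages, lung CD11b DCs, spleen CD8a DCs and spleen CD11b DCs; inflammatory DCs and alveolar macrophages overlapped, as did the spleen groups.

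Tnf (chr17:35199381-35202007, minus strand), which encodes TNF, had 1 library in alveolar macrophages that decided its call. Alveolar macrophages held 3073, 3814 and 2587 in WT, and 6315, 581 and 380.0 in KO. KO replicate 1 was the highest of all 26 libraries, while the other KO libraries lay below every WT alveolar macrophage library. The difference was -1.48 ± 0.62 and was not called (adjusted p = 0.116). Leaving out that library gave -2.73 (adjusted p = 2.02e-05). That library also stood apart in the sum of 8 immediate-early genes, a list chosen after the values were seen: 117623 against 64267 and 66107 in the other KO libraries and 104734 to 120429 in WT. In spleen CD8a DCs the sum was 51426 and 67145 in WT against 85063 and 89262 in KO. In spleen CD11b DCs it was 83324 and 94610 in WT against 105944 and 107939 in KO. Lung CD11b DCs had 131601 to 176111 in WT and 78312 to 103792 in KO, and inflammatory DCs 76878 to 102645 and 73980 to 90265. Whether the handling of cells bears on Tnf or on the other genes was not tested.

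Tnf was not called in the other cells, whose KO and WT libraries overlapped except in spleen CD11b DCs. For lung CD11b DCs the values were 1100, 713 and 774 in WT and 800.3, 1729 and 1406 in KO (0.56 ± 0.62, adjusted p = 0.552). Inflammatory DCs held 398, 560.3 and 1320 in WT and 988, 788 and 1445 in KO (0.64 ± 0.62, adjusted p = 0.768). Spleen CD11b DCs held 217 and 242 in WT and 189 and 181 in KO, a separation of the libraries that was small beside the pooled spread (-0.31 ± 0.76, adjusted p = 0.965). Spleen CD8a DCs held 167 and 97.3 in WT and 159 and 116 in KO. WT levels ran from alveolar macrophages down through lung CD11b DCs, inflammatory DCs and spleen CD11b DCs to spleen CD8a DCs, and of these neighbours only lung CD11b and inflammatory DCs overlapped.

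**Figure D2:**
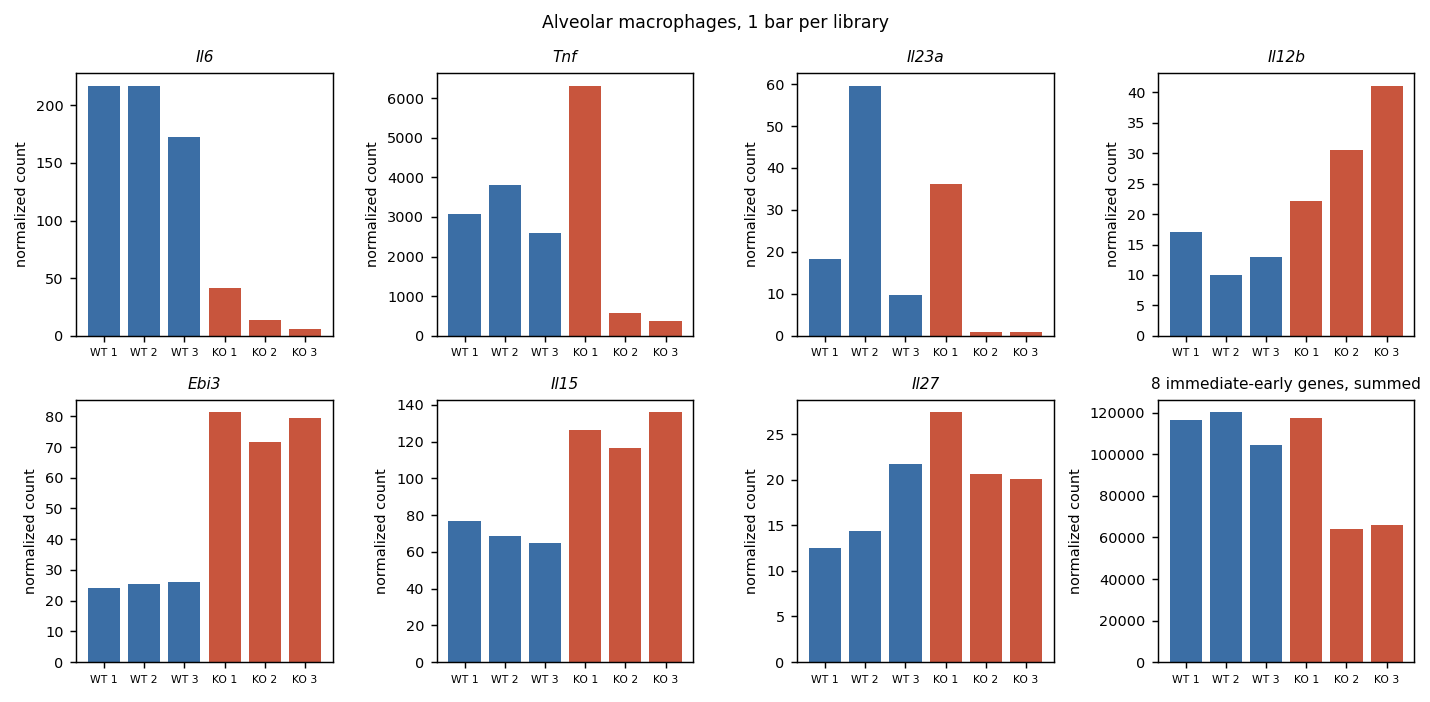
Normalized counts (y axes, linear from 0) in the 6 alveolar macrophage libraries, 1 bar each, WT in blue and KO in red, for 7 cytokine genes and for the sum of 8 immediate-early genes. KO 1 lies above the WT libraries for Tnf, among them for Il23a and the immediate-early sum, and with the other KO libraries for Il6, Ebi3 and Il15.

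Il12b (chr11:44400063-44414033, plus strand), which encodes the p40 chain shared by IL-12 and IL-23, rose in KO lung CD11b DCs and KO alveolar macrophages. In lung CD11b DCs the libraries held 321, 235 and 144 in WT and 952, 679 and 621 in KO, with every KO library above every WT library. The rise was 1.73 ± 0.39 (adjusted p = 0.00226) and was called in 13 of 14 alternatives, the exception being weights per library (1.55, adjusted p = 0.0571). Alveolar macrophages held 17.1, 9.93 and 13.0 in WT and 22.1, 30.5 and 41.1 in KO, from 9 to 45 reads. These libraries did not overlap either, and the rise was 1.15 ± 0.39 (adjusted p = 0.0469), or 1.37 without KO replicate 1 (adjusted p = 0.0383). It was lost in 7 of 14 alternatives, among them edgeR (adjusted p = 0.0822) and leaving out WT replicate 2 or 3 or KO replicate 2 or 3 (adjusted p = 0.106 to 0.184).

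In the other cells Il12b did not pass the test. Inflammatory DCs held 22.2, 19.6 and 48.0 in WT and 18.2, 9.29 and 23.9 in KO (-0.75 ± 0.39, adjusted p = 0.431). Spleen CD8a DCs, the cells known as the main source of IL-12 in the spleen, held 514 and 237 in WT and 617 and 488 in KO (0.65 ± 0.48, adjusted p = 0.563), and spleen CD11b DCs held 66.4 and 80.4 in WT and 109 and 70.9 in KO. For Il12b, the KO effect in inflammatory DCs was lower than that in lung CD11b DCs (-2.48 ± 0.56, adjusted p = 0.00439), where 2 of 9 genes were called against 13.0%. It was also lower than that in alveolar macrophages (-1.91 ± 0.56, adjusted p = 0.0344), a call lost in 8 settings that each left out a library or changed the pseudocount or tool (adjusted p = 0.0653 to 0.12).

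Across WT cells Il12b was highest in spleen CD8a and lung CD11b DCs, whose libraries overlapped, and lowest in alveolar macrophages. WT spleen CD8a DCs exceeded spleen CD11b DCs by 2.24 ± 0.48 (adjusted p = 0.0013), where 3 of 9 genes were called against 23.0%. WT lung CD11b DCs exceeded spleen CD11b DCs by 1.59 ± 0.44 (adjusted p = 0.0069, and 0.0652 without WT spleen CD11b replicate 1), where 7 of 9 were called, all higher in the lung, against 34.9%. Between 3 and 5 of those 7 calls were left when 1 of the 5 libraries was left out. WT alveolar macrophages lay below lung CD11b DCs by 3.98 (-3.98 ± 0.39, adjusted p = 9.94e-09), where 5 of 9 were called against 51.2%. WT inflammatory DCs lay below them by 2.96 (-2.96 ± 0.39, adjusted p = 1.57e-06), where 3 of 9 were called against 47.5%. The share of called cytokine genes was thus near the background for alveolar macrophages and below it for inflammatory DCs.

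Il12a (chr3:68690644-68698547, plus strand), which encodes the p35 chain that completes IL-12, was low everywhere except in inflammatory DCs. Inflammatory DCs held 12.4, 13.8 and 11.0 in WT, from 11 to 14 reads, and 34.5, 114 and 50.3 in KO, from 36 to 86 reads. All KO libraries lay above all WT libraries, yet the difference of 2.15 ± 0.72 was not called (adjusted p = 0.116). It was called with a pseudocount of 8 (1.72, adjusted p = 0.00193) and with weights per library (2.25, adjusted p = 0.0397). The unadjusted limma p was 0.00654 here and 0.00721 in lung CD11b DCs, where Il12a was called. The verdicts differ because p was adjusted within each comparison. The difference of KO effects between these cells was not called (0.03 ± 1.02, adjusted p = 0.992).

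Outside those cells the values rested on a few reads. Lung CD11b DCs held 1.08, 0 and 0 in WT and 5.81, 0.82 and 12.8 in KO, which is at most 1 read in WT and 6, 1 and 19 reads in KO. That rise was called (2.12 ± 0.72, adjusted p = 0.032), although the libraries overlapped and the call was lost in 7 of 14 alternatives, among them leaving out KO replicate 1 or 3 (adjusted p = 0.0683 and 0.176). Alveolar macrophages held 0 in all 3 WT libraries and 0, 7.17 and 1.83 in KO. No read was found in either genotype of spleen CD8a DCs, which allows up to 3 reads per library, and spleen CD11b DCs had 1 read in 4 libraries. In WT cells inflammatory DCs exceeded lung CD11b DCs by 3.39 ± 0.72 (adjusted p = 0.000438), and every other neighbour in the order of levels overlapped.

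Il23a (chr10:128296139-128298752, minus strand), which encodes the p19 chain of IL-23, was called in no KO comparison. Alveolar macrophages held 18.3, 59.6 and 9.76 in WT and 36.3, 0.90 and 0.91 in KO, from 41, 1 and 1 reads in KO. KO replicate 1 lay among the WT libraries, while the other KO libraries lay below all of them. The difference was -2.18 ± 0.97 (adjusted p = 0.138); leaving out that library gave -3.61 (adjusted p = 0.00582). Lung CD11b DCs had 6.50, 7.40 and 3.22 in WT and 12.6, 8.21 and 0.67 in KO, and inflammatory DCs 2.67, 10.4 and 17.0 in WT and 16.3, 7.96 and 13.8 in KO, both overlapping. In the spleen 7 of 8 libraries had no read and the other had 3. WT levels ran from alveolar macrophages through inflammatory DCs to lung CD11b DCs, all overlapping their neighbours, and no difference between WT cell types was called.

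Ebi3 (chr17:55952640-55957022, plus strand), which encodes the shared chain of IL-27, was called in 3 cell types, as was Il15, and in both directions. Alveolar macrophages held 24.0, 25.4 and 26.0 in WT and 81.4, 71.7 and 79.5 in KO. All libraries of each genotype were tight and lay far apart, and the rise of 1.59 ± 0.21 (adjusted p = 7.7e-06) was called in all 14 alternatives, between 1.37 and 1.64. Inflammatory DCs held 109, 135 and 205 in WT and 223, 259 and 386 in KO. These also did not overlap, and the rise was 0.96 ± 0.21 (adjusted p = 0.0131), lost without WT replicate 1 (adjusted p = 0.101), without KO replicate 3 (adjusted p = 0.1) and with these cells fitted alone (adjusted p = 0.236).

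Lung CD11b DCs went the other way. They held 1170.0, 957 and 1289 in WT and 687, 678 and 491 in KO, without overlap. The fall was -0.88 ± 0.21 (adjusted p = 0.00366), called in 13 of 14 alternatives, the exception being weights per library (adjusted p = 0.0665). The KO effect differed from that in lung CD11b DCs in alveolar macrophages (2.47 ± 0.30, adjusted p = 5.9e-06) and in inflammatory DCs (1.84 ± 0.30, adjusted p = 0.000264); both comparisons use the same lung DC libraries. In the spleen the level did not move past its spread: CD8a DCs held 597 and 526 in WT and 526 and 594 in KO, and CD11b DCs 435 and 637 in WT and 532 and 486 in KO. Across WT cells the order was lung CD11b DCs, spleen CD8a DCs, spleen CD11b DCs, inflammatory DCs and alveolar macrophages, and only the 2 spleen groups overlapped. WT alveolar macrophages lay below lung CD11b DCs (log2 difference -5.44 ± 0.21, adjusted p = 7.68e-16).

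Il27 (chr7:126589010-126594941, minus strand), which encodes the p28 chain, had 11 to 128 reads per library and was called in no KO comparison. Its mean was higher in KO in all 5 cell types, by 0.33 to 0.92 on the log2 scale, with adjusted p between 0.116 and 0.9. Lung CD11b DCs held 33.6, 25.4 and 51.6 in WT and 41.7, 70.6 and 86.3 in KO, which overlapped (0.83 ± 0.38, adjusted p = 0.116). Spleen CD8a DCs held 17.1 and 23.3 in WT and 39.1 and 38.4 in KO, which did not (0.92 ± 0.47, adjusted p = 0.318). Leaving out KO lung DC replicate 1 gave the only call (1.12, adjusted p = 0.0388). WT lung CD11b DCs exceeded spleen CD11b DCs by 1.32 ± 0.43 (adjusted p = 0.0184), a call lost without either spleen library or lung replicate 3 (adjusted p = 0.0722 to 0.0868). They lay above inflammatory DCs in every library, but narrowly (lowest 25.38 against highest 25.02) and without a call (-0.59 ± 0.38, adjusted p = 0.212). The other neighbours in the order overlapped. WT alveolar macrophages lay below lung CD11b DCs (-1.115 ± 0.38, adjusted p = 0.0178), a call kept in 10 of 13 alternatives.

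Il10 (chr1:131019845-131024974, plus strand), which encodes IL-10, fell in KO spleen CD8a DCs from a low level. The WT libraries held 11.1 and 19.3, from 13 and 19 reads, and both KO libraries held 0. The difference was -3.97 ± 1.01 on the log2 scale (limma adjusted p = 0.0192). Against a floor of 3 reads per library the KO mean was at least 4.75-fold lower, a bound that was not tested. The call was lost with a pseudocount of 8 (adjusted p = 0.0806) and with the cell type fitted alone (adjusted p = 0.134). No leave-one-out fit of these 4 libraries kept the call (adjusted p between 0.0507 and 0.124). Lung CD11b DCs had 29.3, 26.4 and 1.61 in WT and 8.72, 9.85 and 13.5 in KO, where WT replicate 3 stood apart. Inflammatory DCs held 8.89, 20.7 and 30.0 in WT and 4.79, 5.31 and 16.3 in KO, and alveolar macrophages 11.4, 7.73 and 3.25 in WT and 4.42, 0.90 and 0.91 in KO. In WT cells both lung CD11b and spleen CD8a DCs exceeded spleen CD11b DCs (3.25 ± 0.92, adjusted p = 0.00805, and 3.53 ± 1.01, adjusted p = 0.0128), which had 1 read in 2 libraries; both calls were lost without WT spleen CD11b replicate 1 (adjusted p = 0.0866 and 0.105), and the second also without WT spleen CD8a replicate 2 (adjusted p = 0.09). For the KO differences in inflammatory DCs and alveolar macrophages, neither was called (-1.13 ± 0.83, adjusted p = 0.643, and -1.52 ± 0.83, adjusted p = 0.251).

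Il15 (chr8:82331632-82403222, minus strand), which encodes IL-15, fell in KO spleen CD8a DCs and rose in KO lung CD11b DCs and alveolar macrophages. Spleen CD8a DCs held 276 and 283 in WT, the highest of all groups, and 128 and 149 in KO. The fall was -1.01 ± 0.25 (adjusted p = 0.018) and no fit that left out 1 of the 4 libraries kept it (adjusted p between 0.0606 and 0.172). Lung CD11b DCs held 124, 125 and 113 in WT and 193, 179 and 187 in KO. Every KO library exceeded every WT library, and the rise of 0.63 ± 0.21 (adjusted p = 0.0291) was lost in 7 of 14 alternatives, with adjusted p up to 0.205. The libraries whose loss ended it were the 3 WT libraries and KO replicates 1 and 3 (adjusted p = 0.0523 to 0.0713).

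Alveolar macrophages gave the firmer Il15 result. They held 76.5, 68.4 and 65.1 in WT and 127, 116 and 136 in KO, without overlap, and the rise of 0.84 ± 0.21 (adjusted p = 0.00531) was called in all 14 alternatives. Inflammatory DCs held 84.5, 75.9 and 125 in WT and 83.3, 101 and 86.8 in KO (-0.05 ± 0.21, adjusted p = 0.973). Spleen CD11b DCs held 93.3 and 64.3 in WT and 81.3 and 117 in KO (0.33 ± 0.25, adjusted p = 0.711). WT spleen CD8a DCs exceeded WT spleen CD11b DCs by 1.84 ± 0.25 (adjusted p = 8.42e-06), and were the only group set apart from its neighbour in the WT order. The KO effect in spleen CD8a DCs was lower than that in spleen CD11b DCs (-1.33 ± 0.36, adjusted p = 0.0491), the 1 call of 9 in a comparison with a background of 2.45%. It was lost with a pseudocount of 0.25, with weights per library and in 6 of the 8 settings that left out a library (adjusted p = 0.0502 to 0.299). The difference of KO effects between lung and spleen CD11b DCs called 0 of the 9 genes, against 12.5%; by unadjusted p under 0.05 it held Il12a, Il12b and Ebi3, and edgeR and DESeq2 also called 0.

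**Figure D3:**
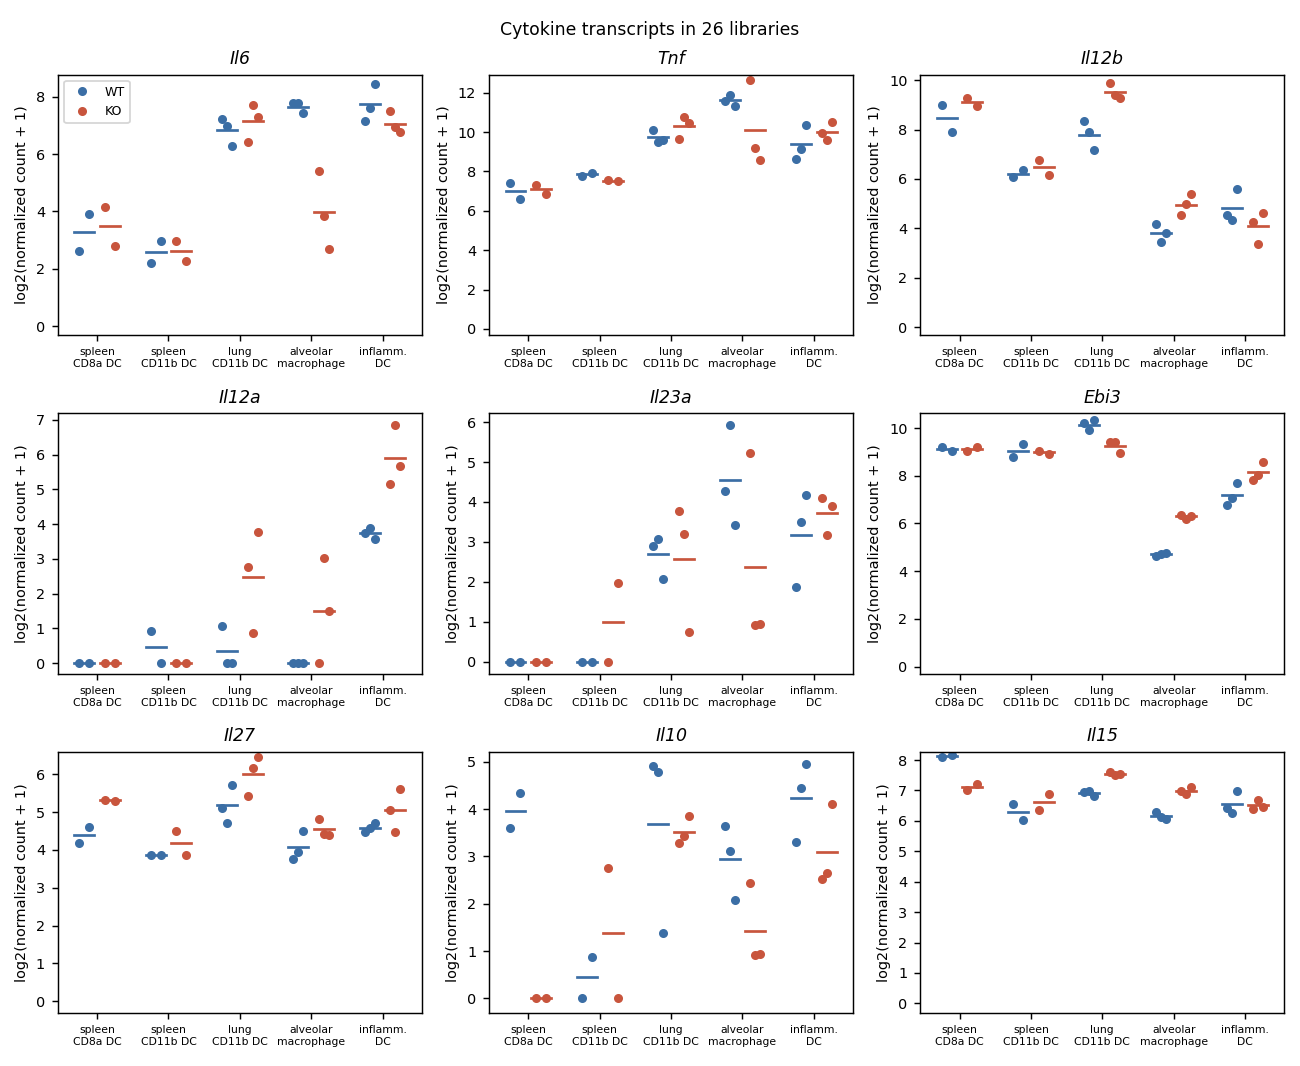
Level of each of the 9 cytokine genes, as log2(normalized count + 1) (y axes), in the 5 cell types (x axes), with 1 point per library, WT in blue and KO in red, and a line at each group mean. Of 36 neighbouring pairs of cell types in the order of levels, 20 overlapped in WT and 24 in KO. Pairs without a read in either group were counted as overlapping. The count was made for the 9 genes only, so no share over all tested genes stands beside it and no conclusion is drawn from it. Il6 is separated by genotype in alveolar macrophages, Ebi3 in the 3 lung groups and Il15 in spleen CD8a DCs, lung CD11b DCs and alveolar macrophages.

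Markers of other cells moved with several of these results, and their part in the results was not tested; in sorted bulk cells, fewer cells of a type and less RNA per cell cannot be told apart. In spleen CD8a DCs, where Il10 and Il15 fell, all 4 red pulp macrophage markers and 8 of 11 monocyte and macrophage markers were lower in KO. The red pulp sum was 22117 and 38941 in WT against 1746 to 2285 in KO, and no marker of that list was at 0. Of 9 alveolar macrophage markers 2 were higher and 4 lower in these cells, and of 7 cDC2 markers 1 was higher and 2 lower. Also higher were 1 of 8 cDC1 and 1 of 7 NK cell markers. In lung CD11b DCs, where Il12b and Il15 rose and Ebi3 fell, 3 of 7 cDC2 markers were lower in KO and none higher (sums of 61860 to 68817 in WT and 23484 to 34082 in KO), and 4 of 11 monocyte and macrophage markers were higher and 1 lower. Lower there too were 4 of 8 cDC1 markers and 3 of 6 conventional DC markers, with 1 of the latter higher, and 2 of 5 plasmacytoid DC markers were higher. Of 9 alveolar macrophage markers 1 was higher and 3 lower, and 1 of 4 red pulp macrophage markers was higher. Of 7 tested markers of lung epithelium, endothelium and stroma 2 were lower. The sum of 8 interferon-stimulated genes, chosen after the values were seen, was 2152 to 2194 in WT and 22550 to 23794 in KO there. In alveolar macrophages, where Il6 fell and Ebi3, Il15 and Il12b rose, 5 of 6 T cell markers, 3 of 7 NK cell markers and 2 of 4 neutrophil markers were higher in KO, at T cell sums of 14.3 to 18.3 in WT and 92.0 to 168 in KO. Of 11 monocyte and macrophage markers 5 were higher and 1 lower there, and their sum was lower (257549 to 259614 in WT, 184983 to 204257 in KO). Most of that sum was Lyz2, which averaged 242971 in WT and 179688 in KO. Also higher in KO were 3 of 7 cDC2, 2 of 6 conventional DC and 2 of 5 plasmacytoid DC markers, with none lower. Of 4 red pulp macrophage markers 2 were higher and none lower. Of 8 cDC1 markers 1 was higher and 1 lower, and the same held for 7 tested markers of lung epithelium, endothelium and stroma. Of the 9 alveolar macrophage markers 2 were lower and none higher. Their sums were 313115 to 322960 in WT and 194954 to 214476 in KO. Most of each sum was Chi3l3, which averaged 273577 in WT and 155396 in KO. Car4 (6251 in WT, 14684 in KO), Marco (2572 and 3383) and Atp6v0d2 (17789 and 24033) averaged higher in KO without a call. The rest of the list averaged lower. The interferon-stimulated sum was 142 to 209.7 in WT and 985 to 2968 in KO alveolar macrophages. In inflammatory DCs, where Ebi3 rose, 4 of 6 conventional DC markers were lower and 1 higher in KO. Of 7 cDC2 markers 2 were lower and 1 higher there. Lower too were 2 of 9 alveolar macrophage, 2 of 6 T cell and 1 of 5 B cell markers. Higher were 1 of 8 cDC1 markers and the 1 tested marker of eosinophils, basophils and mast cells.

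Chains that pair were compared per kb of exon, the scale on which different genes can be set side by side. Ebi3 exceeded its partner Il27 in every library. The ratio was 22.1 to 33.4 in WT lung CD11b DCs against 5.03 to 14.6 in KO, and 1.06 to 1.69 in WT alveolar macrophages against 2.63 to 3.50 in KO. Neither pair of ranges overlapped, nor did those of spleen CD8a DCs (19.96 to 30.8 in WT, 11.9 to 13.7 in KO). The ranges did overlap in spleen CD11b DCs (28.6 to 41.6 in WT, 21.65 to 31.6 in KO). They also overlapped in inflammatory DCs (4.53 to 7.255 in WT, 6.06 to 10.8 in KO). No share over other gene pairs stands beside this. In inflammatory DCs the per-kb level of Il12b was 1.23 to 3.77 times that of Il12a in WT and 0.0704 to 0.456 times in KO, so that p35 transcript exceeded p40 transcript in each of the 3 KO libraries and in none of the WT libraries. Elsewhere p40 transcript was in excess wherever Il12a had more than 3 reads, at 41.9 to 142 times in 2 KO lung CD11b DC libraries and 3.68 times in 1 KO alveolar macrophage library. Il12b exceeded Il23a 36.2 to 56.4 times per kb in WT lung CD11b DCs, while the ratio was 0.19 to 1.52 in WT alveolar macrophages. In the 2 KO lung CD11b DC libraries with more than 3 Il23a reads it was 86.4 and 94.5. These ratios are descriptions and were given no test.

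**Figure D4:**
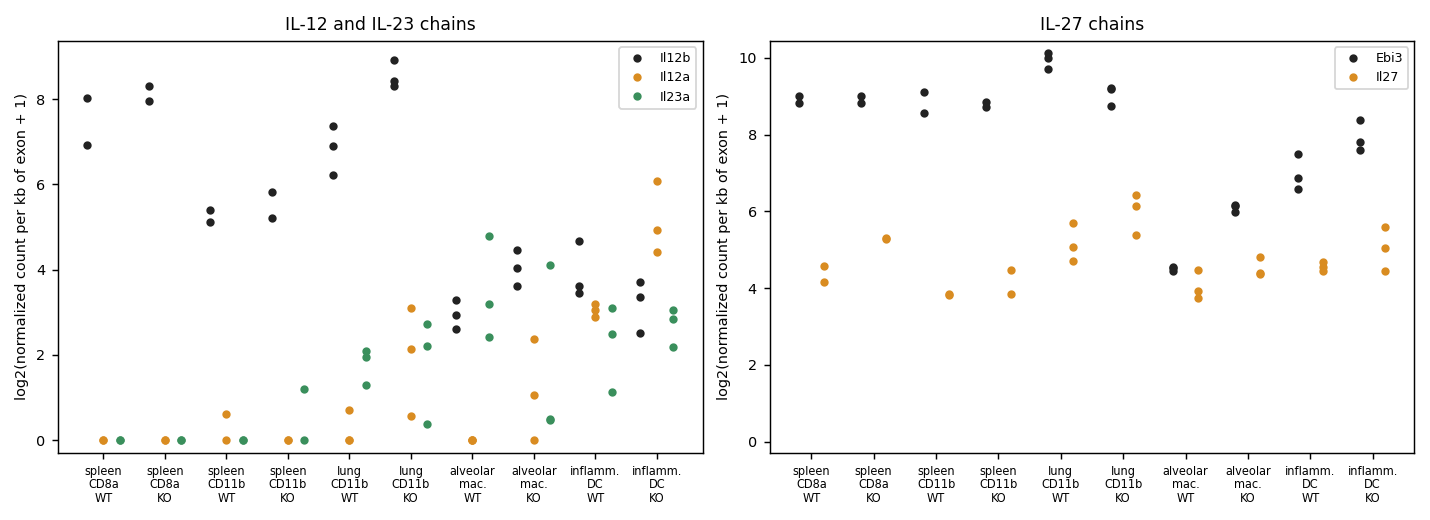
Normalized count per kb of exon, as log2(value + 1) (y axes), for the chains of IL-12 and IL-23 (left) and of IL-27 (right), by cell type and genotype (x axes), with 1 point per library. In the left panel Il12a lies above Il12b in KO inflammatory DCs only; in the right panel Ebi3 lies closest to Il27 in WT alveolar macrophages.

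For each cytokine gene with a mean of at least 50 in some group, the genes whose log2 level ran most like it over the 10 group means were sought among 11083 candidates. Tnf ran with Tlr2, a receptor for bacterial lipoproteins (Pearson r = 0.994), Rhoa (0.986) and C5ar1, the C5a receptor (0.979). Ebi3 ran with Atp8b2 (0.979), Lrrc42 (0.978) and Depdc7 (0.975), and Il12a with Dach1 (0.976), Saa3 (0.975) and Nags (0.972). Il6 ran with Tspan17 (0.965), Plekhf2 (0.963) and Vash1 (0.953), and Il12b with Sepw1 (0.964), Vps36 (0.953) and Rabgap1l (0.948). The closest for Il27 were Csda (0.926), Lrrc32 (0.921) and Mbd2 (0.9), and for Il15 Fcf1 (0.918), Sssca1 (0.886) and Slc7a6os (0.881). Over the 26 libraries each of these r was lower, from 0.633 (Il15 with Fcf1) to 0.964 (Ebi3 with Lrrc42). There the 3 genes for Il15 reached 0.633 to 0.733 and those for Il27 0.724 to 0.838. Among the cytokine genes themselves, Il6 and Tnf ran together (r = 0.81), as did Il12b with Ebi3 (0.759) and with Il15 (0.751). All these values share the same 26 libraries and 10 groups and describe them only.

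The receptors of the 9 cytokines, 12 tested of 13 listed, and the lists that follow were set against the shares called over all tested genes, which were 5.13% in spleen CD8a DCs, 1.52% in spleen CD11b DCs, 26.1% in lung CD11b DCs, 3.37% in inflammatory DCs and 16.9% in alveolar macrophages. Among the receptors, in KO lung CD11b DCs 3 were higher and 3 lower, with a median difference of 0.04 against -0.05 over all tested genes. Il6st, the gp130 chain through which IL-6 signals, fell from 1732 to 704 there (-1.39 ± 0.21, adjusted p = 3.29e-05), and Il6ra fell from 1955 to 1262 (adjusted p = 0.000835). In KO alveolar macrophages, where Il6 fell, 3 were higher and 4 lower. Il6st fell from 2194 to 997 (-1.14 ± 0.21, adjusted p = 0.000344) and Il10rb, a chain of the IL-10 receptor, rose from 1236 to 2365 (0.94 ± 0.13, adjusted p = 8.41e-06). In KO spleen CD8a DCs the single change was a fall of Il15ra, the chain that presents IL-15, from 295 to 127 (-1.20 ± 0.25, adjusted p = 0.00336), beside the fall of Il15. In KO spleen CD11b DCs Il6ra rose from 1038 to 1996 (0.96 ± 0.15, adjusted p = 0.00177) and Tnfrsf1b rose, with none lower. In KO inflammatory DCs Il2rg rose and Il6st fell from 2052 to 1210.2 (-0.77 ± 0.21, adjusted p = 0.0425). The call on Il6st was thus a fall in each of the 3 lung cell types.

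Of 13 JAK, STAT and SOCS genes, 4 were higher and 2 lower in KO lung CD11b DCs, and 4 higher and 4 lower in KO alveolar macrophages. Socs3, the feedback inhibitor of IL-6 signalling, fell in lung CD11b DCs (-0.52 ± 0.18, adjusted p = 0.033). It rose in alveolar macrophages from 511 to 1211 (1.23 ± 0.18, adjusted p = 1.72e-05), and was the only call in spleen CD8a DCs, from 68.9 to 139 (adjusted p = 0.00395), and in spleen CD11b DCs, from 235 to 575 (adjusted p = 0.00215).

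Of 22 regulators of cytokine transcripts, 6 were higher and 3 lower in KO lung CD11b DCs, 4 higher and 4 lower in alveolar macrophages, 2 lower in spleen CD8a DCs, 1 higher in inflammatory DCs and 0 in spleen CD11b DCs. Irf7 rose from 858 to 7041 in lung CD11b DCs (3.03 ± 0.27, adjusted p = 2.17e-08) and from 71.7 to 959 in alveolar macrophages (3.56 ± 0.27, adjusted p = 1.06e-09). Irf8, known as an activator of Il12b, rose from 1193 to 3154 in lung CD11b DCs (1.40 ± 0.16, adjusted p = 9.98e-07). Maf, known as an activator of Il10, fell from 223 to 18.3 in spleen CD8a DCs (-3.50 ± 0.50, adjusted p = 4.82e-05), the cells in which Il10 fell. Irf1 rose from 1820.3 to 3248 in inflammatory DCs (0.82 ± 0.19, adjusted p = 0.0141).

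Among 10 genes of TNF processing and response, 3 were higher and 1 lower in both KO lung CD11b DCs and KO alveolar macrophages. Rhbdf2, which brings the TNF-shedding protease to the surface, rose from 333 to 1002 in lung CD11b DCs (1.56 ± 0.15, adjusted p = 9.04e-08) and fell from 243 to 121 in spleen CD8a DCs (-1.01 ± 0.19, adjusted p = 0.00107). Tnfaip3, an inhibitor of NF-κB induced by TNF, fell from 16706 to 5686 in lung CD11b DCs (adjusted p = 0.0103) and from 12371 to 6521 in alveolar macrophages (adjusted p = 0.0438). No gene of this list was called in spleen CD11b DCs or inflammatory DCs.

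Of 16 tested among 21 other cytokines that steer T cells, 2 were higher and 1 lower in KO lung CD11b DCs, 3 lower in alveolar macrophages, 1 higher and 3 lower in spleen CD8a DCs, 1 higher in spleen CD11b DCs and 0 in inflammatory DCs. The 18.8% called in lung CD11b DCs was below the share over all genes. Osm, an IL-6 family cytokine, rose from 932 to 4083 in lung CD11b DCs (2.19 ± 0.27, adjusted p = 2.5e-06) and fell from 4399 to 1470 in alveolar macrophages (-1.61 ± 0.27, adjusted p = 0.000121). Clcf1, another of that family, fell from 74.1 to 12.0 in alveolar macrophages (-2.57 ± 0.32, adjusted p = 2.32e-06), beside Il6. Il18 fell from 517 to 170 in spleen CD8a DCs (-1.61 ± 0.32, adjusted p = 0.00226), and Tgfb1 rose from 930 to 1906 in spleen CD11b DCs (1.07 ± 0.17, adjusted p = 0.00103).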

How the data were processed

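Total RNA of sorted cells was made into libraries and sequenced by the authors. Per the submitters' processing notes, STAR 2.3.1s, HTSeq and DESeq2 1.10.1 were used with build mm10; for the annotation and strand setting, the sources used here name none. The deposited signal is a read count divided by a size factor. In each of the 26 columns, 100% of values were whole reads times 1 factor, within 1e-06, so reads were recovered.

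The main test was limma 3.58.1 (R 4.3.3; trend and empirical Bayes) on log2(normalized count + 1), with 1 mean per group in 10 groups. Genes needed at least 10 in at least 2 libraries, which kept 13311 of 23420. P-values were adjusted by Benjamini-Hochberg over all tested genes within each comparison and called under 0.05. The 14 comparisons were 5 of KO with WT, 4 of WT cell types and 5 of KO effects; they share libraries. Named genes were all 9 cytokine genes, up to 4 of each related list with the smallest p, and the 3 genes most alike over group means. The cytokine genes and lists were chosen with earlier results of these data known.

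Alternatives were pseudocounts of 0.25 and 8, no filter, TMM scaling, edgeR 4.0.16 and DESeq2 1.42.0 on recovered reads, weights per library, each cell type fitted alone, and leaving out each library. The code was tested on simulated data. Exon lengths and loci came from the mouse annotation of GRCm38, and promoters from RefSeq.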

Additional observations from a re-analysis of the deposited data

Results flagged for a closer look

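The KO effect of 4 cytokine genes differed between cell types by a test of the difference itself (limma, log2 scale, adjusted over 13311 genes), in 7 differences. For Il6 the effect in alveolar macrophages minus that in lung CD11b DCs was -3.985 ± 0.78 (SE, adjusted p = 0.000915), and the effect in inflammatory DCs minus that in alveolar macrophages was 2.991 ± 0.78 (adjusted p = 0.0169). For Ebi3 the difference from lung CD11b DCs was 2.471 ± 0.30 in alveolar macrophages (adjusted p = 5.9e-06) and 1.841 ± 0.30 in inflammatory DCs (adjusted p = 0.000264). For Il12b the effect in inflammatory DCs was lower than that in lung CD11b DCs (-2.482 ± 0.56, adjusted p = 0.00439) and than that in alveolar macrophages (-1.905 ± 0.56, adjusted p = 0.0344). For Il15 the effect in spleen CD8a DCs minus that in spleen CD11b DCs was -1.334 ± 0.36 (adjusted p = 0.0491). Inflammatory DCs were also the only cells from treated mice, and the treatment and the cell type cannot be told apart. Their WT libraries held Y-linked reads that the steady-state WT libraries nearly lacked, so sex cannot be told apart from these either. Without KO alveolar macrophage replicate 1, the difference between alveolar macrophages and lung CD11b DCs was also called for Tnf (-3.29, adjusted p = 0.000146) and Il23a (adjusted p = 0.0481).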

How the results depend on the processing

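No called result changed direction in any setting run; some differences that were not called changed sign, among them Il10 for KO against WT in spleen CD11b DCs (0.93, to -0.44) and Il12a for the KO effect in inflammatory DCs minus alveolar macrophages (0.64, to -2.28). Of the 9 genes in 14 comparisons, 1728 values kept their side of the threshold under an alternative, 28 passed it only there and 76 no longer passed it; the cause was not tested. The number of the 9 genes called moved by over 1.5 times as follows. In spleen CD8a DCs it was 2 for KO against WT, 1 with a pseudocount of 8, 0 with the cell type fitted alone and 0 when any library was left out. In lung CD11b DCs it was 4, 0 with weights per library, 2 with the cell type alone and 2 to 4 without a library. In alveolar macrophages it was 4, 8 with weights and 3 to 7 without a library, 7 being without KO replicate 1. In inflammatory DCs it was 1, 2 with a pseudocount of 8 or with weights, 0 with the cell type alone and 0 to 1 without a library. For WT lung against spleen CD11b DCs it was 7, and 3 to 5 without a library; for WT alveolar macrophages against lung CD11b DCs it was 5, and 3 to 5. For the difference of KO effects between spleen types it was 1, 2 by DESeq2, 0 with weights and 0 to 1 without a library; between lung and spleen CD11b DCs it was 0, and 0 to 1; between alveolar macrophages and lung CD11b DCs it was 2, and 2 to 4; between inflammatory DCs and alveolar macrophages it was 2, 1 with a pseudocount of 8 or by edgeR, 5 with weights and 0 to 4. Over all genes, the calls for KO against WT in spleen CD8a DCs were 683, and 0 with that cell type alone (2319 had an unadjusted p under 0.05 in the fit of all groups) or as low as 369 without a library. In spleen CD11b DCs they were 202, 361 by DESeq2, 652 with weights, 0 alone and as low as 28 without a library; in lung CD11b DCs 3471, 1897 with weights and 856 alone; in alveolar macrophages 2247, 4509 with weights and 3863 alone; in inflammatory DCs 448, 843 with weights, 0 alone and as low as 208 without a library. The KO effect differed for 326 genes between the spleen types and for as few as 213 without a library, for 1659 between lung and spleen CD11b DCs (792 to 2494), for 1734 between inflammatory and lung CD11b DCs (1114 with weights) and for 1056 between inflammatory DCs and alveolar macrophages (2141 with weights). Genes with under 20 reads in both groups, as Il12a, Il23a and Il10 in most cells, give differences that depend on the pseudocount. No paired analysis was run, because the labels carry no replicate numbers that are shared between groups. In the KO spleen the Y-linked sums were 977 (CD8a) and 932 (CD11b) in replicate 1. They were 3049 and 3295 in replicate 2. Whether the spleen cell types came from the same animals was not tested, and the difference of their KO effects treated the libraries as independent.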
